A study of Mus musculus with 9 samples.

Results

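Ventricles of 3 mice under combined isoprenaline and phenylephrine (ISO/PE) were compared with ventricles of 3 control mice (Ctr) across all genes. Both groups were wild-type C57Bl6N mice, for which the labels give an age of 2 to 3 months in one field and 3 months in another, and the methods of the study a slightly higher range. The ISO/PE mice (1 female, 2 males) carried an osmotic minipump that released 30 mg/kg/day isoprenaline together with 30 mg/kg/day phenylephrine, and their hearts were taken at 96 h. The Ctr mice (2 females, 1 male) had no pump, so that drug, pump implantation and the time under the pump cannot be told apart. A further group of 3 hearts received the same dose of isoprenaline alone (ISO, 1 female, 2 males, also 96 h) and served here for the estimate of the spread and for the test of ISO/PE vs. ISO. The comparison therefore used 6 of the 9 hearts of the series, and 14426 of 15149 genes found in both tables passed a filter on low counts and were tested. A call of higher or lower needed an edgeR adjusted p under 0.05 together with a log2 fold change beyond 0.6 in either direction, and "rose" and "fell" are used for such genes. Levels are given as CPM, the counts of a gene scaled to a common library size. They are given for the Ctr hearts in the order female1, female2 and male1, and for the ISO/PE hearts in the order female2, male1 and male2.

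Isoprenaline activates beta-adrenoceptors, which in cardiomyocytes couple to cyclic AMP and protein kinase A and raise the rate and force of contraction. Phenylephrine activates alpha1-adrenoceptors, which couple through Gq to phospholipase C and protein kinase C and are known in rodents for driving growth of cardiomyocytes. The adult heart muscle cell draws most of its energy from the oxidation of fatty acids, is filled with sarcomeres and mitochondria, and shares the ventricle with fibroblasts, endothelial cells, pericytes and macrophages.

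The libraries held 10172248 to 14477054 counts. Log2 CPM values correlated at 0.988 to 0.990 among the Ctr hearts and at 0.986 to 0.989 among the ISO/PE hearts across genes, which are not independent replicates. Xist, the RNA that coats the inactive X chromosome, and the Y-linked Ddx3y matched the labelled sex in every heart, and with 2 females in one group and 1 in the other, sex is not balanced. Summed cardiomyocyte markers were at 49469 to 55038 CPM in the Ctr and 30411 to 40833 CPM in the ISO/PE hearts, so the tissue was heart muscle in both groups. The summed endothelial markers were at 3602 to 4487 CPM in the Ctr and 3108 to 3479.9 CPM in the ISO/PE hearts, those of fibroblasts at 5539 to 6352 CPM in the Ctr and 10274 to 13288 CPM in the ISO/PE hearts, and those of macrophages and monocytes at 625 to 804 CPM in the Ctr and 2062 to 2533 CPM in the ISO/PE hearts. The fibroblast sum includes Col1a1, with means of 283 CPM in the Ctr and 4519 CPM in the ISO/PE hearts, and Col1a2, with 261 and 3049 CPM. Gsn, also in this sum, went from 3091 to 1060 CPM, and of the 13 fibroblast markers 5 were higher and 2 lower. The rise of this sum is therefore no measure of the number of fibroblasts. In whole ventricles fewer cells of a type and less RNA per cell cannot be told apart, and the part of these shifts in the results below was not tested.

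In ISO/PE vs. Ctr 2309 genes were higher (16% of the genes tested) and 1463 were lower (10.1%). The median of all genes was -0.01 on the log2 scale. Rises reached further than falls: 583 genes rose and 74 fell by more than 2 on the log2 scale, 216 and 13 by more than 3, and 76 and 2 by more than 4. In 2272 of the higher and 1418 of the lower genes the 3 ISO/PE hearts and the 3 Ctr hearts did not overlap. This was counted only in genes already called by the same contrast, for which separation is nearly given, and is no further support for the calls. The fold changes rest on the assumption that most genes did not change. Scaled to the total counts instead, the split was 2730 higher and 1049 lower, with the median of all genes at 0.11. Scaled to the summed cardiomyocyte markers it was 6335 higher and 327 lower, with the median of all genes at 0.55, so that a fall in the following paragraphs is a fall relative to the bulk of the transcriptome. Of the single genes named as lower, 27 of 72 lost the call with that scaling, and 0 changed direction.

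**Figure D1:**
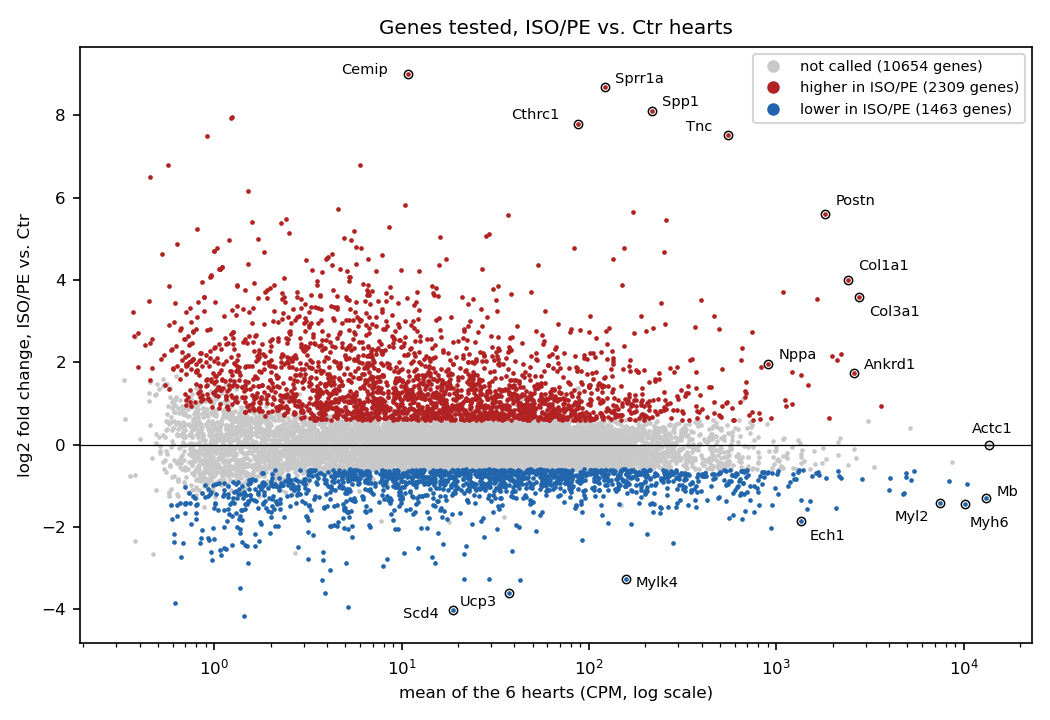
Log2 fold change of ISO/PE vs. Ctr (vertical axis) against the mean level of the 6 hearts in CPM on a log axis (horizontal axis), with 1 point per gene tested, higher genes in red, lower genes in blue and some genes named. The 2309 higher genes reach further from 0 than the 1463 lower genes, and the lower genes extend to the most abundant transcripts of the ventricle.

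Among the most abundant transcripts, falls outnumbered rises. Of the 50 genes with the highest Ctr level per kilobase of transcript, 31 were lower in ISO/PE and 0 were higher. With all genes divided into 10 groups by level per kilobase, the top group held 206 higher and 286 lower genes (14.3% and 19.8%, median log2 fold change -0.15). The bottom group held 357 higher and 136 lower genes (24.7% and 9.42%), and part of it passed the filter only through the group in which the gene was high. As a share of all counts, the genes called lower took 31.5, 32.1 and 31.2% in the Ctr hearts and 15.6, 18.6 and 18.1% in the ISO/PE hearts. The genes called higher took 6.74, 6.47 and 6.93% in the Ctr and 21.4, 18.7 and 17.9% in the ISO/PE hearts. These shares describe genes chosen by the same contrast and carry no test of their own. The uncalled genes stayed between 61.5 and 64.0% of counts in all 6 hearts.

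**Figure D2:**
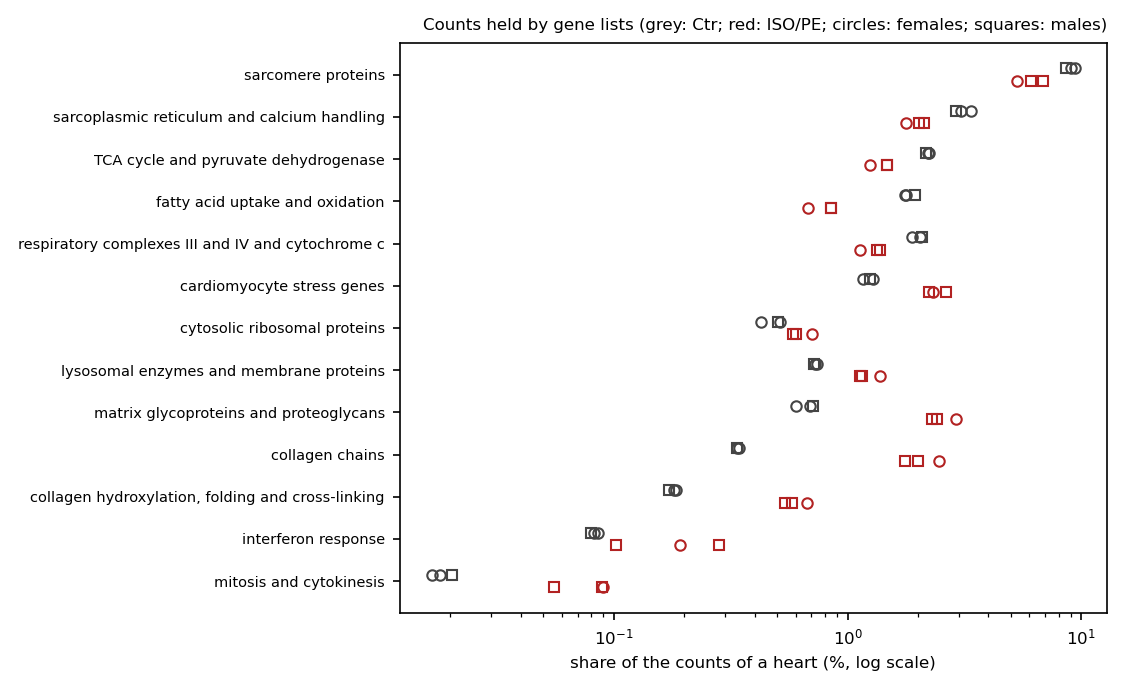
Share of the counts of a heart, in percent on a log axis, taken by lists of genes, with 1 point per heart (grey for Ctr, red for ISO/PE, circles for females and squares for males). Sarcomere transcripts took 8.62 to 9.38% in the Ctr and 5.29 to 6.87% in the ISO/PE hearts, whereas collagen chains took 0.337 to 0.344% and 1.76 to 2.46%.

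**Figure D3:**
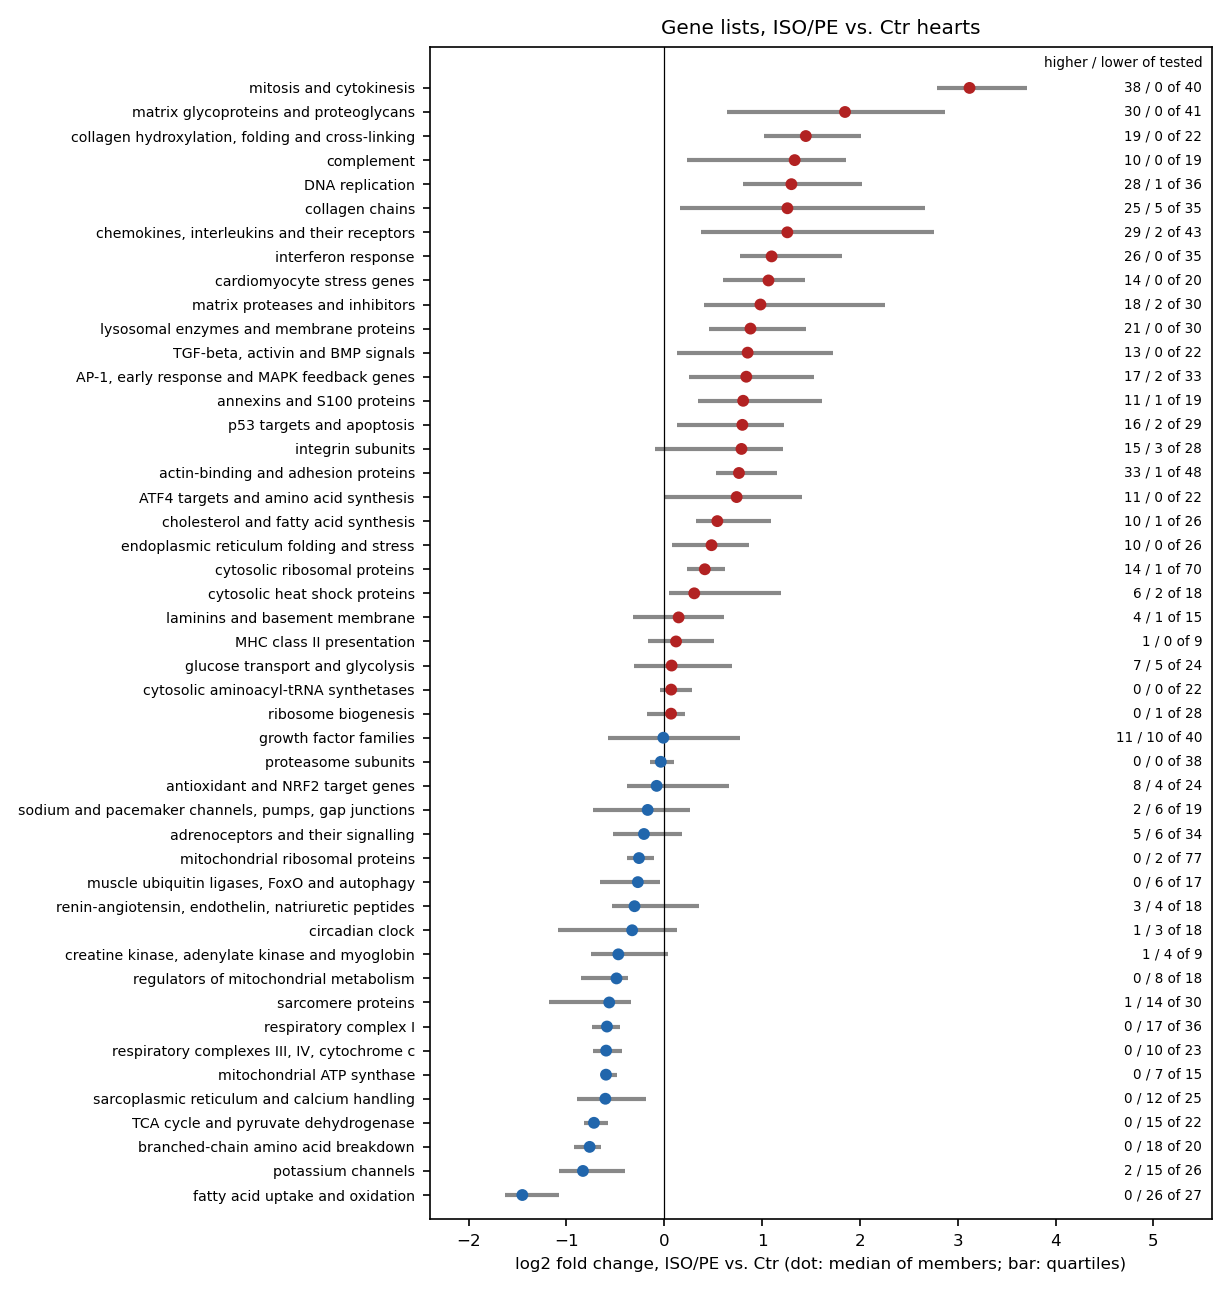
Log2 fold change of ISO/PE vs. Ctr in each list of genes with a known role, as the median of the tested members (dot) and their quartiles (bar), with the numbers of higher and lower genes at the right. Fatty acid uptake and oxidation stands at one end with 26 of 27 genes lower, and mitosis and cytokinesis at the other with 38 of 40 genes higher.

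Transcripts of fatty acid uptake and oxidation fell almost as a whole. Of 27 genes 26 were lower and 0 higher, with a median log2 fold change of -1.45 beside -0.01 over all genes. Ech1, an auxiliary enzyme of the oxidation of unsaturated fatty acids, was at 2062, 1968 and 2340.3 CPM in the Ctr and 481, 623 and 655 CPM in the ISO/PE hearts (log2 fold change -1.86, SE 0.15, edgeR adjusted p = 6.26e-06). Hadha, the alpha subunit of the mitochondrial trifunctional protein, was at 2109, 2077 and 2296 CPM in the Ctr and 651, 791 and 768 CPM in the ISO/PE hearts (log2 fold change -1.55, SE 0.15, edgeR adjusted p = 1.60e-05). Acadm, the medium-chain acyl-CoA dehydrogenase, was at 1026, 1007 and 1058 CPM in the Ctr and 265, 349.6 and 392 CPM in the ISO/PE hearts (log2 fold change -1.62, SE 0.16, edgeR adjusted p = 1.78e-05). For all 3 genes the highest ISO/PE heart was far below the lowest Ctr heart, and ISO/PE female2 was the lowest of all. Fabp3, the fatty acid binding protein of heart muscle, fell 3.103-fold, and Mlycd, which removes malonyl-CoA, an inhibitor of carnitine palmitoyltransferase, fell 2.76-fold. The member with the largest fall was Ucp3, a mitochondrial uncoupling protein that peroxisome proliferator-activated receptors induce, with 44.6, 67.2 and 96.6 CPM in the Ctr and 4.65, 9.75 and 2.72 CPM in the ISO/PE hearts (log2 fold change -3.61, SE 0.47, edgeR adjusted p = 9.26e-05). Cd36, the fatty acid translocase of the plasma membrane, had one of the smaller falls (log2 fold change -0.66, edgeR adjusted p = 0.00179). Its call was lost by total counts (-0.56) and without ISO/PE female2 (-0.54). The exception was Cpt1a, the carnitine palmitoyltransferase isoform of liver, at 69.3, 83.1 and 91.2 CPM in the Ctr and 50.2, 80.95 and 49.8 CPM in the ISO/PE hearts, in which the groups overlapped (log2 fold change -0.43, edgeR adjusted p = 0.06297). Scaled to the cardiomyocyte markers, the median of the list was -0.92 and 19 of the 27 genes were still lower.

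Breakdown of branched-chain amino acids, which also feeds acyl-CoA into the mitochondria, went the same way. Of 20 genes 18 were lower and 0 higher (median log2 fold change -0.76). Bckdha, a subunit of the dehydrogenase that commits branched-chain keto acids to breakdown, was at 424, 411 and 446 CPM in the Ctr and 135, 163 and 181 CPM in the ISO/PE hearts (log2 fold change -1.42, SE 0.12, edgeR adjusted p = 7.50e-06). Ivd, the isovaleryl-CoA dehydrogenase of leucine breakdown, was at 602, 641 and 587 CPM in the Ctr and 214, 235 and 275 CPM in the ISO/PE hearts (log2 fold change -1.34, SE 0.12, edgeR adjusted p = 9.20e-06). In both genes the groups were separated by a wide gap. In the TCA cycle and the pyruvate dehydrogenase complex 15 of 22 genes were lower and 0 higher (median -0.72). Idh2, the mitochondrial NADP-dependent isocitrate dehydrogenase, fell 2.598-fold, from 2179 ± 192 to 839 ± 62.7 CPM (mean ± SD, n = 3). Suclg2, a subunit of succinyl-CoA ligase, fell 2.101-fold, and Ogdh, the oxoglutarate dehydrogenase, fell 1.78-fold. Scaled to the cardiomyocyte markers, the medians of these lists were -0.23 and -0.18, with 2 and 1 genes still lower.

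Subunits of the respiratory chain fell by less. In complex I 17 of 36 genes were lower, in complexes III and IV with cytochrome c 10 of 23, and in the ATP synthase 7 of 15, with 0 higher in any of them. The medians were -0.59, -0.59 and -0.60, close to the threshold of 0.6, and scaled to the cardiomyocyte markers they were -0.05, -0.06 and -0.06, with 0, 1 and 0 genes lower. By total counts the ATP synthase list held 2 lower genes, and without Ctr female1 or without ISO/PE female2 it held 4. Cox6a2 and Cox8b are the isoforms of cytochrome c oxidase subunits made in striated muscle. Cox6a2 was at 5385, 5296 and 5604 CPM in the Ctr and 2129.8, 2795 and 2719 CPM in the ISO/PE hearts (log2 fold change -1.09, SE 0.13, edgeR adjusted p = 4.43e-05). Cox8b was at 1114, 997 and 1183 CPM in the Ctr and 393, 571 and 529 CPM in the ISO/PE hearts (log2 fold change -1.14, SE 0.13, edgeR adjusted p = 4.88e-05). The groups did not overlap in either, and ISO/PE female2 was the lowest heart. Ndufs1, the largest subunit of complex I, fell 1.94-fold (edgeR adjusted p = 7.46e-05), and Slc25a4, the ADP/ATP carrier of heart muscle, fell 1.82-fold, from 6761 ± 338 to 3724 ± 746 CPM. Mitochondrial ribosomal proteins, which translate the mitochondrially encoded subunits, were 2 of 77 lower and 0 higher, and their median of -0.26 turned to 0.29 with the scaling to cardiomyocyte markers.

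Among regulators of mitochondrial metabolism 8 of 18 genes were lower and 0 higher (median -0.49, which turned to 0.06 with the scaling to cardiomyocyte markers). Ppara, the nuclear receptor that drives fatty acid oxidation genes, was at 119, 131 and 98.3 CPM in the Ctr and 58.4, 51.8 and 81.8 CPM in the ISO/PE hearts (log2 fold change -0.86, SE 0.18, edgeR adjusted p = 0.00262). Perm1, a striated-muscle regulator that acts with PGC-1 and ERR factors, was at 453, 469 and 393 CPM in the Ctr and 158, 208 and 281 CPM in the ISO/PE hearts (log2 fold change -1.02, SE 0.18, edgeR adjusted p = 0.000713). Both fell, with the ISO/PE male2 heart nearest to the Ctr hearts. Ppargc1a, which encodes the coactivator PGC-1alpha, was at 141, 112 and 109.7 CPM in the Ctr and 81.003, 92.1 and 209 CPM in the ISO/PE hearts, so that the ISO/PE male2 heart was above all Ctr hearts and the others below (log2 fold change 0.08, edgeR adjusted p = 0.8503). Esrra, its partner ERRalpha, was at 179, 203 and 173 CPM in the Ctr and 143, 149 and 163 CPM in the ISO/PE hearts and did not reach the fold threshold (log2 fold change -0.29, edgeR adjusted p = 0.0289). Pdk4 and Pdk2, kinases that switch off pyruvate dehydrogenase, fell 3.797-fold and 1.99-fold.

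Glucose metabolism shifted in both directions, with 7 of 24 genes higher and 5 lower (median 0.08). Slc16a3, the lactate and pyruvate exporter MCT4, was at 4.77, 4.79 and 6.02 CPM in the Ctr and 46.4, 40.7 and 36.8 CPM in the ISO/PE hearts (log2 fold change 2.99, SE 0.20, edgeR adjusted p = 2.07e-06). Slc2a1, the basal glucose transporter GLUT1, was at 30.8, 39.8 and 29.7 CPM in the Ctr and 63.2, 45.9 and 63.97 CPM in the ISO/PE hearts, and Slc2a4, the insulin-responsive GLUT4, at 628, 703 and 625 CPM in the Ctr and 336, 480.04 and 449 CPM in the ISO/PE hearts. GLUT1 rose and GLUT4 fell, with log2 fold changes of 0.79 and -0.63 (edgeR adjusted p = 0.001304 and 0.00251), and the call for GLUT4 was lost by total counts (log2 fold change -0.52), without Ctr female2 (-0.58) and without ISO/PE female2 (-0.49). Pfkm, the muscle phosphofructokinase, fell 1.93-fold and Ldhb, the lactate dehydrogenase subunit of heart, fell 2.02-fold, whereas Aldoa, the most abundant member, did not pass the test (log2 fold change -0.09, edgeR adjusted p = 0.5099). Without Ctr female2 or without ISO/PE female2 the lower genes of the list were 3. Myoglobin (Mb), the oxygen store of muscle and one of the most abundant transcripts, was at 18449, 19129.6 and 18424 CPM in the Ctr and 6115, 8906 and 7672 CPM in the ISO/PE hearts (log2 fold change -1.30, SE 0.16, edgeR adjusted p = 6.46e-05). Its level fell in every ISO/PE heart to less than the lowest Ctr heart, and 33.6% of its exon sequence overlaps another gene, which matters because reads were counted without regard to strand. Ckm, the muscle creatine kinase, fell 1.74-fold and Ckb, the brain isoform, rose 1.597-fold.

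**Figure D4:**
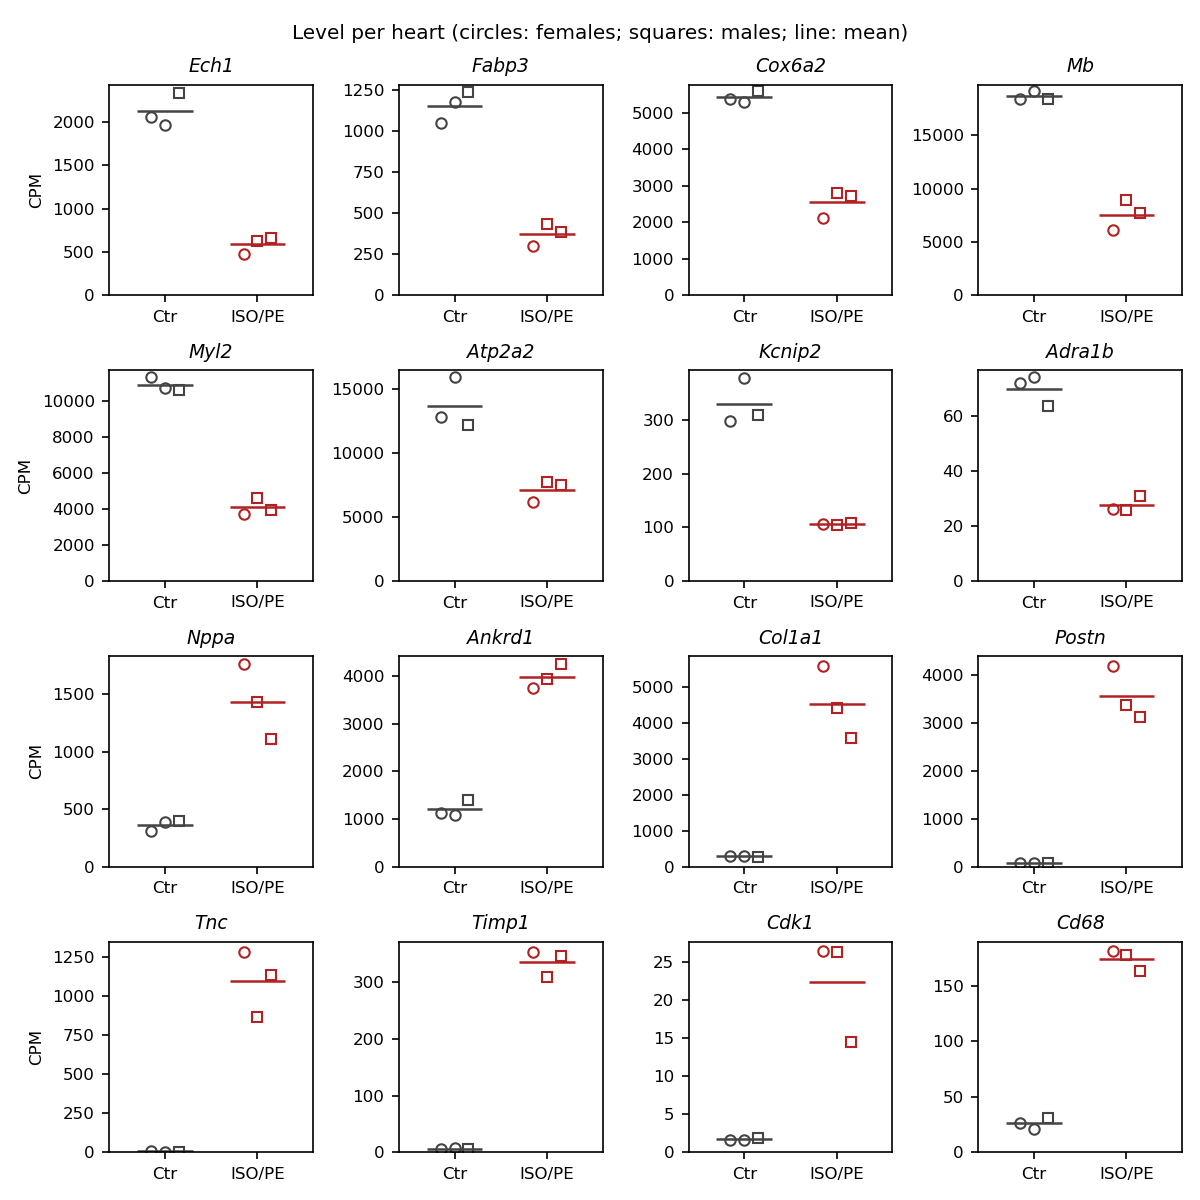
Levels of single genes in CPM, with 1 panel per gene, 1 point per heart (circles for females, squares for males) and a line at the mean of the 3 Ctr and the 3 ISO/PE hearts. In Ech1 the ISO/PE hearts lie at 481 to 655 CPM and the Ctr hearts at 1968 to 2340 CPM, and in Tnc at 865 to 1280 and 4.08 to 8.05 CPM.

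Of 30 sarcomere proteins 14 were lower and 1 was higher (median -0.56, -0.01 with the scaling to cardiomyocyte markers, under which 9 were still lower). Those markers are mostly sarcomere genes themselves, among them Actc1, Myl2, Tnni3 and Ttn. The median of this list under that scaling is therefore largely set by its construction. Myl2, the regulatory light chain of the ventricle, was at 11357, 10726 and 10610.1 CPM in the Ctr and 3738, 4636 and 3959.8 CPM in the ISO/PE hearts (log2 fold change -1.41, SE 0.12, edgeR adjusted p = 8.70e-06). Myh6, the alpha myosin heavy chain that predominates in the adult mouse ventricle, was at 15259, 16139.9 and 13331 CPM in the Ctr and 3140.2, 7493 and 5783 CPM in the ISO/PE hearts (log2 fold change -1.45, SE 0.27, edgeR adjusted p = 0.00116). Tnni3, the troponin I of heart, was at 6966, 6856 and 6144 CPM in the Ctr and 2393, 3336 and 3149 CPM in the ISO/PE hearts (log2 fold change -1.17, SE 0.14, edgeR adjusted p = 5.97e-05). All 3 had lower levels in each ISO/PE heart than in any Ctr heart, and Myh6 varied most among the ISO/PE hearts. Myom2, an M-band protein, fell 4.04-fold and Myh7b, a slow myosin that hosts a microRNA, fell 3.895-fold. Actc1, the cardiac alpha-actin, did not move with them: it was at 13194, 14862 and 12912 CPM in the Ctr and 10577, 16754 and 13288 CPM in the ISO/PE hearts (log2 fold change -0.01, edgeR adjusted p = 0.9602). Ttn, the giant elastic protein titin, was at 1965, 2356 and 1753 CPM in the Ctr and 1306, 1428 and 1721 CPM in the ISO/PE hearts, without overlap but short of the threshold (log2 fold change -0.45, edgeR adjusted p = 0.0509). The single rise was Acta1, the skeletal alpha-actin that is high in the fetal heart, at 169, 366 and 527 CPM in the Ctr and 556, 1732 and 778 CPM in the ISO/PE hearts (log2 fold change 1.53, SE 0.45, edgeR adjusted p = 0.0158). Here the lowest ISO/PE heart was only just above the highest Ctr heart, and the call was lost with sex and number of the heart as a block (log2 fold change 1.04), without Ctr female1 (1.195) and without ISO/PE male1 (0.91). The turnover genes of muscle had 0 of 17 higher and 6 lower (median -0.27, turning to 0.29 with the scaling to cardiomyocyte markers), among them Trim63, the ubiquitin ligase MuRF1, with a fall of 1.91-fold.

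Myosin and the RNA antisense to it lie next to each other on mouse chromosome 14 (mm10), Myh6 at chr14:54941921-54968017 and Myh7 at chr14:54970684-54994626. Myh7, the beta myosin heavy chain of the fetal ventricle, was at 322, 606 and 336 CPM in the Ctr and 1908, 129 and 697 CPM in the ISO/PE hearts. The group means differed by 1.11 on the log2 scale, but the ISO/PE male1 heart was below every Ctr heart and the test was not passed (edgeR adjusted p = 0.177). Without ISO/PE male1 the log2 fold change was 1.63 and passed, and without ISO/PE female2 it was -0.03. Mhrt, a long noncoding RNA transcribed from this locus, showed the same order of hearts with 34.9, 60.6 and 38.4 CPM in the Ctr and 171, 23.2 and 55.4 CPM in the ISO/PE hearts (log2 fold change 0.90, edgeR adjusted p = 0.173), but 38.1% of its exon sequence overlaps another gene, so that its counts cannot be separated from those of myosin. 

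Of 20 genes known to respond to stress in cardiomyocytes 14 were higher and 0 lower (median 1.07, 0.77 without ISO/PE male2). Nppa, which encodes atrial natriuretic peptide, was at 312, 386 and 399.7 CPM in the Ctr and 1762, 1429.8 and 1112 CPM in the ISO/PE hearts (log2 fold change 1.97, SE 0.29, edgeR adjusted p = 0.0002303), with 61.5% of its exon bases shared with another gene. Nppb, which encodes the B-type peptide, was at 352, 195 and 182 CPM in the Ctr and 541, 528 and 872 CPM in the ISO/PE hearts (log2 fold change 1.41, SE 0.35, edgeR adjusted p = 0.00599). Ankrd1, a titin-binding repeat protein that responds to strain, was at 1130.01, 1078 and 1393 CPM in the Ctr and 3751, 3931 and 4262 CPM in the ISO/PE hearts (log2 fold change 1.73, SE 0.30, edgeR adjusted p = 0.000667). The ISO/PE hearts were above the Ctr hearts in all 3, by a narrower margin in Nppb, for which Ctr female1 was at 352 CPM. Fhl1, a LIM protein of the sarcomere, rose 3.601-fold, and Ankrd2, a relative of Ankrd1 from slow skeletal muscle, rose from 0.561, 0.469 and 0.306 to 3.36, 4.31 and 4.93 CPM. Rbm20, which regulates the splicing of titin, is not in this list but among the cardiomyocyte markers, and fell 1.93-fold. The fast skeletal light chain Myl1, found also in atria, and Nppa were the only 2 of 6 atrial markers called, both higher, in a list with a median of -0.42 that turned to 0.14 with the scaling to cardiomyocyte markers.

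The store and the release of calcium in the sarcoplasmic reticulum set the strength of each beat. In this list 12 of 25 genes were lower and 0 higher (median -0.60, -0.07 with the scaling to cardiomyocyte markers, under which 3 were still lower). Atp2a2, the calcium pump SERCA2, was at 12831, 15989 and 12174 CPM in the Ctr and 6166, 7701 and 7469 CPM in the ISO/PE hearts (log2 fold change -0.94, SE 0.17, edgeR adjusted p = 0.000915). Pln, its inhibitor phospholamban, was at 10768, 11197 and 10392 CPM in the Ctr and 5244, 5745 and 6454 CPM in the ISO/PE hearts (log2 fold change -0.89, SE 0.13, edgeR adjusted p = 0.000236), and 59.6% of its exon bases are shared with another gene. The pump and its inhibitor thus fell by similar amounts, and neither showed an overlap of the groups. Hrc, a calcium-binding protein of the lumen, fell 3.47-fold, from 1022 ± 26.2 to 294 ± 66.02 CPM. Strit1, a micropeptide that activates the pump, fell 3.08-fold, from 17.8 ± 4.69 to 5.797 ± 2.104 CPM. Cacna1s, the L-type channel subunit of skeletal muscle, was low in all hearts and fell 4.04-fold. Ryr2, the release channel, was at 1048, 1083 and 977 CPM in the Ctr and 781, 909 and 1155 CPM in the ISO/PE hearts, with overlap of the groups (log2 fold change -0.13, edgeR adjusted p = 0.558).

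Potassium channels, which repolarise the action potential, were lower in 15 of 26 genes and higher in 2 (median -0.83, -0.29 with the scaling to cardiomyocyte markers). Kcnip2, the subunit KChIP2 that the fast transient outward current needs, was at 299, 380.2 and 311 CPM in the Ctr and 107, 105 and 108 CPM in the ISO/PE hearts (log2 fold change -1.63, SE 0.15, edgeR adjusted p = 1.01e-05). Kcnd2, the pore of that current, was at 34.3, 27.1 and 31.9 CPM in the Ctr and 11.6, 17.1 and 15.95 CPM in the ISO/PE hearts (log2 fold change -1.07, SE 0.17, edgeR adjusted p = 0.000454). In both genes every ISO/PE heart was far below the Ctr hearts, and the ISO/PE values of Kcnip2 were close to each other. Kcnv2, a silent subunit that modifies other channels, fell most, from 13.7, 15.01 and 13.6 to 1.74, 1.89 and 1.84 CPM (log2 fold change -2.94, SE 0.32, edgeR adjusted p = 3.10e-05). The subunits of the ATP-sensitive channel fell together: the pore Kcnj11 2.21-fold, the pore Kcnj8 1.87-fold and the sulfonylurea receptor Abcc8 2.39-fold. One of the 2 rises was Kcnn4, a calcium-activated channel of immune and stromal cells, at 1.403, 1.03 and 0.816 CPM in the Ctr and 8.26, 6.65 and 4.26 CPM in the ISO/PE hearts. The rises were 1 without Ctr male1 or without ISO/PE female2. Among sodium and pacemaker channels, pumps and gap junctions 6 of 19 genes were lower and 2 higher, and the median of -0.17 turned to 0.37 with the scaling to cardiomyocyte markers. Scn4b, an accessory subunit of the sodium channel, was at 43.8, 78.3 and 76.98 CPM in the Ctr and 4.52, 18.9 and 10.1 CPM in the ISO/PE hearts (log2 fold change -2.59, SE 0.43, edgeR adjusted p = 0.000534). Hcn2, a pacemaker channel, was at 71.7, 78.7 and 62.4 CPM in the Ctr and 22.2, 34.3 and 25.6 CPM in the ISO/PE hearts (log2 fold change -1.38, SE 0.15, edgeR adjusted p = 3.08e-05). The ISO/PE hearts were below the Ctr hearts in both, and Fxyd5, a regulator of the sodium pump that is known from non-muscle cells, rose 3.42-fold.

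Adra1b, Adra1a and Adrb1, receptors for the infused drugs, were themselves lower. Adra1b, an alpha1-adrenoceptor, was at 71.8, 74.04 and 63.3 CPM in the Ctr and 26.01, 25.7 and 30.95 CPM in the ISO/PE hearts (log2 fold change -1.34, SE 0.11, edgeR adjusted p = 6.00e-06). Adra1a, another alpha1-adrenoceptor of cardiomyocytes, was at 21.5, 19.6 and 20.7 CPM in the Ctr and 6.97, 6.35 and 6.54 CPM in the ISO/PE hearts (log2 fold change -1.64, SE 0.19, edgeR adjusted p = 4.63e-05). Adrb1, the main beta-adrenoceptor of the heart, was at 47.8, 67.004 and 45.6 CPM in the Ctr and 28.8, 29.3 and 24.5 CPM in the ISO/PE hearts (log2 fold change -0.96, SE 0.15, edgeR adjusted p = 0.000396). None of these had overlapping groups. Grk5, a kinase that desensitises these receptors, rose 1.73-fold, Pde3b, which degrades cyclic AMP, rose 2.37-fold, and Adcy7, an adenylyl cyclase known from immune cells, rose 3.197-fold. Gnas, the stimulatory G protein, stayed close to its Ctr level (log2 fold change -0.16, edgeR adjusted p = 0.178). Over the whole list 5 of 34 genes were higher and 6 lower, with a median of -0.21 that turned to 0.35 with the scaling to cardiomyocyte markers. In the renin-angiotensin, endothelin and natriuretic peptide system 3 of 18 genes were higher and 4 lower, with a median of -0.30 that turned to 0.25. Agtr1a, the angiotensin receptor of the heart, was at 76.2, 90.6 and 81.9 CPM in the Ctr and 34.02, 38.1 and 34.6 CPM in the ISO/PE hearts (log2 fold change -1.22, SE 0.10, edgeR adjusted p = 4.86e-06). Nr3c2, the mineralocorticoid receptor, fell 1.95-fold, and Mas1, a receptor that opposes the effects of angiotensin II, was low throughout and fell from 1.59, 2.06 and 1.84 to 0.129, 0.756 and 0.662 CPM.

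Most matrix genes were higher. Of 35 collagen chains 25 were higher and 5 lower (median 1.26), of 41 glycoproteins and proteoglycans 30 were higher and 0 lower (median 1.85), and of 22 genes that hydroxylate, fold or cross-link collagen 19 were higher and 0 lower (median 1.45). Col1a1, a chain of type I collagen, was at 283, 296 and 271 CPM in the Ctr and 5583, 4394 and 3578 CPM in the ISO/PE hearts (log2 fold change 3.996, SE 0.27, edgeR adjusted p = 2.27e-06). Fn1, fibronectin, was at 168, 135 and 162 CPM in the Ctr and 2413, 1961 and 1658 CPM in the ISO/PE hearts (log2 fold change 3.70, SE 0.25, edgeR adjusted p = 2.15e-06). Postn, periostin, which marks activated fibroblasts, was at 69.4, 72.3 and 76.9 CPM in the Ctr and 4188, 3371 and 3120.3 CPM in the ISO/PE hearts (log2 fold change 5.61, SE 0.32, edgeR adjusted p = 1.12e-06). In each of these ISO/PE female2 was the highest heart and no ISO/PE heart came near the Ctr hearts. Tnc, the matrix protein tenascin C of injured tissue, was at 8.05, 5.72 and 4.08 CPM in the Ctr and 1280.4, 865 and 1131 CPM in the ISO/PE hearts (log2 fold change 7.51, SE 0.65, edgeR adjusted p = 8.39e-06). Spp1, osteopontin, was at 1.96, 1.13 and 1.53 CPM in the Ctr and 516, 309.5 and 463 CPM in the ISO/PE hearts (log2 fold change 8.11, SE 0.88, edgeR adjusted p = 2.99e-05), with 18.8% of its exon bases shared with another gene. Lox, the lysyl oxidase that cross-links collagen, was at 14.9, 6.57 and 12.7 CPM in the Ctr and 534, 406 and 569.5 CPM in the ISO/PE hearts (log2 fold change 5.46, SE 0.48, edgeR adjusted p = 8.70e-06). These 3 were at low levels in all Ctr hearts, and ISO/PE male1 was the lowest ISO/PE heart in each. Timp1, an inhibitor of matrix proteases, rose 50.01-fold, whereas its relative Timp4, which is high in heart, fell from 56.3, 66.3 and 129.7 to 16.7, 33.2 and 27.3 CPM, and Timp3 did not pass the test (log2 fold change -0.38, edgeR adjusted p = 0.301). Cemip, a protein that degrades hyaluronan, had 1 count over the 3 Ctr hearts and 937 over the ISO/PE hearts, a ratio of 689.7 (exact 95% counting interval 123 to 27269.7). Laminins and basement membrane genes were 4 of 15 higher and 1 lower (median 0.15), with 2 higher without Ctr female2.

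Markers of activated fibroblasts were higher in 11 of 12 genes (median 3.63), with a summed level of 419 to 484 CPM in the Ctr and 6427 to 8266 CPM in the ISO/PE hearts. Many of them are matrix genes and are also in the lists above. General fibroblast markers were higher in 5 of 13 genes and lower in 2 (median 0.33). Scara5, a ferritin receptor that marks a quiescent fibroblast population, was at 50.7, 43.7 and 66.4 CPM in the Ctr and 18.1, 22.9 and 31.5 CPM in the ISO/PE hearts (log2 fold change -1.15, SE 0.19, edgeR adjusted p = 0.000499), and Gsn, gelsolin, which cuts actin filaments and is abundant in fibroblasts, fell 2.92-fold, from 3091 ± 153 to 1059.6 ± 175 CPM. Thus the list held genes of both directions. Aldh1a2, the retinoic acid synthase of epicardium and mesothelium, rose 6.38-fold, in a list of 8 epicardial genes with 3 higher and 0 lower.

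Genes of the actin cytoskeleton and of cell adhesion were higher in 33 of 48 and lower in 1, which was Gsn (median 0.76). Cnn1, calponin of contractile smooth muscle, was at 4.49, 3.47 and 3.47 CPM in the Ctr and 54.7, 26.3 and 42.3 CPM in the ISO/PE hearts (log2 fold change 3.43, SE 0.26, edgeR adjusted p = 4.47e-06). Lcp1, the actin bundler of white blood cells, rose 4.26-fold, from 47.6 ± 1.96 to 203 ± 14.6 CPM. Integrin subunits, the receptors for matrix, were higher in 15 of 28 and lower in 3 (median 0.79), with 1 lower without Ctr male1, ISO/PE male1 or ISO/PE male2. Itga5, which pairs into the fibronectin receptor, was at 98.9, 103 and 90.7 CPM in the Ctr and 217, 198 and 272 CPM in the ISO/PE hearts (log2 fold change 1.23, SE 0.13, edgeR adjusted p = 2.69e-05), and the leukocyte subunit Itgb2 rose 5.01-fold. Annexins and S100 proteins were higher in 11 of 19 and lower in 1 (median 0.81), led by S100a4 at 9.64, 8.82 and 9.28 CPM in the Ctr and 45.7, 64.3 and 58.97 CPM in the ISO/PE hearts, of whose exon bases 60.6% are shared with another gene.

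Growth signals did not move as one group. In the TGF-beta, activin and BMP list 13 of 22 genes were higher and 0 lower (median 0.85), among them Inhba, the activin A subunit, with 6.74, 4.598 and 4.79 CPM in the Ctr and 41.8, 29.9 and 48.6 CPM in the ISO/PE hearts (log2 fold change 2.89, SE 0.22, edgeR adjusted p = 4.47e-06), and Gdf15, a stress-induced relative of this family, with 3.37, 1.69 and 1.33 CPM in the Ctr and 8.07, 7.18 and 13.5 CPM in the ISO/PE hearts (log2 fold change 2.16, SE 0.37, edgeR adjusted p = 0.000642). In the IGF, FGF, PDGF, VEGF and EGF families 11 of 40 genes were higher and 10 lower (median -0.01, 0.55 with the scaling to cardiomyocyte markers). Igf1, insulin-like growth factor, rose 2.34-fold, and the EGF receptor ligand Ereg was at 0.281, 0.0938 and 0 CPM in the Ctr and 5.55, 2.797 and 6.25 CPM in the ISO/PE hearts. Angpt1, the angiopoietin that stabilises vessels, fell 2.68-fold, and Erbb4, the neuregulin receptor of cardiomyocytes, fell from 13.8, 11.8 and 11.1 to 6.45, 4.46 and 7.57 CPM. Vegfa, the vascular endothelial growth factor, was at 299.9, 310.4 and 226 CPM in the Ctr and 148, 168 and 203 CPM in the ISO/PE hearts (log2 fold change -0.69, SE 0.15, edgeR adjusted p = 0.00284), a call that was lost by total counts (-0.58) and without ISO/PE female2 (-0.59). Vegfd, which acts on lymphatic vessels as well, rose 3.14-fold. So both directions occurred within 1 family. Early response and MAPK feedback genes were higher in 17 of 33 and lower in 2 (median 0.84). Runx1, a transcription factor of blood development, was at 3.84, 4.04 and 4.28 CPM in the Ctr and 28.8, 27.1 and 28.4 CPM in the ISO/PE hearts (log2 fold change 2.79, SE 0.19, edgeR adjusted p = 2.15e-06). Myc was at 5.43, 4.32 and 5.302 CPM in the Ctr and 17.6, 19.8 and 26.2 CPM in the ISO/PE hearts (log2 fold change 2.08, SE 0.18, edgeR adjusted p = 8.10e-06), and Egr2 at 1.12, 1.31 and 1.94 CPM in the Ctr and 15.5, 10.4 and 16.8 CPM in the ISO/PE hearts (log2 fold change 3.29, SE 0.35, edgeR adjusted p = 2.37e-05). The ISO/PE hearts were above the Ctr hearts in all 3.

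Cell cycle genes rose from very low levels. Of 40 genes of mitosis and cytokinesis 38 were higher and 0 lower (median 3.12), and of 36 of DNA replication 28 were higher and 1 lower (median 1.30). Members such as Ccnb2 and Kif2c passed the filter only through treated hearts, in which they were high. For such members a call of lower was hardly possible, so these counts are in part set by the filter. The mitosis list took 0.0166 to 0.0202% of counts in the Ctr and 0.0557 to 0.0895% in the ISO/PE hearts. Ccnb2, a cyclin of mitosis, was at 0.374, 0.563 and 0.918 CPM in the Ctr and 17.6, 18.3 and 9.56 CPM in the ISO/PE hearts (log2 fold change 4.61, SE 0.36, edgeR adjusted p = 4.86e-06). Top2a, the topoisomerase of dividing cells, was at 2.43, 2.44 and 6.63 CPM in the Ctr and 51.6, 51.5 and 29.9 CPM in the ISO/PE hearts (log2 fold change 3.55, SE 0.33, edgeR adjusted p = 1.09e-05). Kif2c, a kinesin that depolymerises microtubules at centromeres, was at 0.468, 0.188 and 0.306 CPM in the Ctr and 9.49, 8.47 and 6.54 CPM in the ISO/PE hearts (log2 fold change 4.63, SE 0.32, edgeR adjusted p = 2.82e-06). In these genes ISO/PE male2 was the lowest ISO/PE heart, still above every Ctr heart. The uncalled Cenpa, a centromeric histone, was abundant for its list at 50.4, 55.3 and 55.3 CPM in the Ctr and 36.1, 52.9 and 38.1 CPM in the ISO/PE hearts (log2 fold change -0.34, edgeR adjusted p = 0.0443). Of 29 p53 targets and apoptosis genes 16 were higher and 2 lower (median 0.80), among them Cdkn1a, the cell cycle inhibitor p21, with 37.6, 40.3 and 31.8 CPM in the Ctr and 124, 108 and 171 CPM in the ISO/PE hearts (log2 fold change 1.88, SE 0.22, edgeR adjusted p = 4.53e-05). The inhibitor Cdkn1a and mitotic genes were thus both higher in the same tissue, and which cells hold them was not measured.

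Interferon-stimulated genes encode antiviral proteins and respond to interferons through STAT and IRF factors. Of 35 genes 26 were higher and 0 lower (median 1.10), and the ISO/PE hearts were far apart. Zbp1, a sensor of unusual nucleic acids, was at 2.43, 2.72 and 1.94 CPM in the Ctr and 24.01, 52.5 and 10.7 CPM in the ISO/PE hearts (log2 fold change 3.61, SE 0.52, edgeR adjusted p = 0.000197). Oas3, an antiviral enzyme that double-stranded RNA activates, was at 1.03, 1.13 and 0.918 CPM in the Ctr and 12.4, 18.5 and 4.19 CPM in the ISO/PE hearts (log2 fold change 3.50, SE 0.54, edgeR adjusted p = 0.000336). Ifit1, which binds foreign RNA ends, was at 12.5, 12.8 and 11.9 CPM in the Ctr and 52.02, 79.3 and 26.5 CPM in the ISO/PE hearts (log2 fold change 2.08, SE 0.31, edgeR adjusted p = 0.000251). In all 3, ISO/PE male1 was the highest and ISO/PE male2 the lowest ISO/PE heart, and even the lowest was above the Ctr hearts. The median of the list was 0.78 without ISO/PE male1 and 1.36 without ISO/PE male2. The core of the interferon-stimulated response element, read here as GAAA and GAAA with any 2 bases between them, on either strand, was looked for in the 250 bases before the transcription start, for these promoters because their genes moved together, and after their values had been seen. It lay in 13 of 29 promoters of the list that were at hand (44.8%) and in 9 of 20 of its members called higher (45%). Among all higher genes it lay in 84 of 1787 promoters (4.7%), and among all genes in 306 of 11268 (2.72%). The list was made of known interferon-stimulated genes, so its high share follows from that choice and is not a result about these hearts. A match is a string of letters and not a measured binding site. Stretches around the match nearest to the start are given in the direction of the gene, with every match in capitals, from RefSeq on GRCm38.p6, for Ifit1 (chr19:34640784-34640833, plus strand, 2 matches on the opposite strand), Oas3 (chr5:120777705-120777754, minus strand, 1 match), Oas1a (chr5:120907526-120907559, minus strand, 2 overlapping matches) and Isg15 (chr4:156200855-156200904, minus strand, 3 overlapping matches).
Ifit1: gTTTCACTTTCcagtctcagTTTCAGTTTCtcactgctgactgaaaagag
Oas3: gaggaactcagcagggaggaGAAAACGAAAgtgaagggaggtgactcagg
Oas1a: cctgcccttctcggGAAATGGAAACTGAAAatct
Isg15: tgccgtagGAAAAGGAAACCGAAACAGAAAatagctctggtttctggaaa

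Isg15, a ubiquitin-like modifier, was at 7.11, 4.598 and 4.89 CPM in the Ctr and 29.6, 42.9 and 10.2 CPM in the ISO/PE hearts, and Oas1a at 2.34, 3.28 and 1.73 CPM in the Ctr and 11.8, 16.1 and 4.9997 CPM in the ISO/PE hearts, so that the genes of the 4 stretches shared the order of the ISO/PE hearts. They rose by 2.31 and 2.15 on the log2 scale (edgeR adjusted p = 0.000965 and 0.000854).

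Chemokines, interleukins and their receptors were higher in 29 of 43 and lower in 2 (median 1.26). The lower genes were 1 without Ctr male1 and 4 without ISO/PE male1. Ccl2, which attracts monocytes, was at 6.92, 3.097 and 5.2001 CPM in the Ctr and 34.5, 48.9 and 91.5 CPM in the ISO/PE hearts (log2 fold change 3.52, SE 0.47, edgeR adjusted p = 0.000121). Ccr1, a receptor of inflammatory chemokines, was at 2.99, 2.25 and 4.69 CPM in the Ctr and 21.2, 30.2 and 30.1 CPM in the ISO/PE hearts (log2 fold change 3.04, SE 0.28, edgeR adjusted p = 1.12e-05). Both rose in all ISO/PE hearts, and Ccl2 was highest in male2. Ccl11, eotaxin, which attracts eosinophils, was at 4.303, 2.72 and 10.2 CPM in the Ctr and 1.55, 1.74 and 2.65 CPM in the ISO/PE hearts (log2 fold change -1.53, edgeR adjusted p = 0.0112), a call that was lost without Ctr male1. Il6 had 3 counts over the Ctr hearts and 69 over the ISO/PE hearts, a ratio of 16.9 (exact 95% counting interval 5.56 to 84.1). Complement genes were higher in 10 of 19 and lower in 0 (median 1.33), with the receptor C5ar1 at 11.04, 11.6 and 10.9 CPM in the Ctr and 54.7, 49.6 and 60.7 CPM in the ISO/PE hearts (log2 fold change 2.30, SE 0.18, edgeR adjusted p = 5.30e-06).

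Macrophage and monocyte markers were higher in 14 of 19 genes and lower in 1 (median 1.94). Trem2, a lipid receptor of tissue macrophages, was at 3.55, 5.35 and 5.91 CPM in the Ctr and 62.2, 46.2 and 36.2 CPM in the ISO/PE hearts (log2 fold change 3.29, SE 0.32, edgeR adjusted p = 1.58e-05). Gpnmb, a glycoprotein of lipid-laden macrophages, was at 4.397, 2.72 and 5.61 CPM in the Ctr and 71.8, 42.9 and 68.7 CPM in the ISO/PE hearts (log2 fold change 3.86, SE 0.56, edgeR adjusted p = 0.000202). Arg1, the arginase of alternatively activated macrophages, had 3 counts over the Ctr hearts and 504 over the ISO/PE hearts, a ratio of 124 (exact 95% counting interval 42.1 to 602). The single fall was Timd4, which marks resident macrophages in the mouse heart, at 4.58, 4.598 and 5.302 CPM in the Ctr and 0.775, 2.57 and 0.956 CPM in the ISO/PE hearts (log2 fold change -1.77, SE 0.36, edgeR adjusted p = 0.00209). Timd4 was below the Ctr hearts in each ISO/PE heart. The log2 fold change was positive in the other 18 markers, which include Lyve1, Folr2, Cd163 and Mrc1. A change in the number of resident macrophages was not tested. Lysosomal genes were higher in 21 of 30 and lower in 0 (median 0.88), among them the cathepsin Ctsk, which degrades collagen, with 9.36, 12.3 and 14.4 CPM in the Ctr and 34.9, 37.2 and 28.4 CPM in the ISO/PE hearts, and Lgmn, the asparaginyl protease, which rose 3.35-fold. Antigen presentation by MHC class II showed 1 of 9 genes higher (Ctss, cathepsin S) and 0 lower. Without ISO/PE male2 this count was 5, and Cd74, the invariant chain, was at 197, 236 and 256 CPM in the Ctr and 270.2, 216 and 129 CPM in the ISO/PE hearts, highest in ISO/PE female2 and lowest in ISO/PE male2.

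Other white blood cells were near the limit of detection. Only 3 of 15 markers of T and NK cells passed the filter, 2 of them higher, and their summed level was 4.18 to 5.26 CPM in the Ctr and 7.41 to 11.5 CPM in the ISO/PE hearts. Of 10 neutrophil markers 6 passed, 2 of them higher, with a sum of 5.72 to 16.01 CPM in the Ctr and 16.7 to 32.01 CPM in the ISO/PE hearts. B cell markers were lower in 5 of 7 genes and higher in 0 (median -1.66), at a summed level of 12.3 to 17.5 CPM in the Ctr and 5.73 to 10.004 CPM in the ISO/PE hearts, with 3 lower without Ctr male1 or without ISO/PE female2. Ms4a1, which encodes CD20, was at 1.87, 1.595 and 2.24 CPM in the Ctr and 0.516, 0.6803 and 0.515 CPM in the ISO/PE hearts (log2 fold change -1.72, SE 0.31, edgeR adjusted p = 0.000988). All 9 erythroid genes tested were called lower (median -0.75), but this rested on single hearts: the count was 0 without Ctr female1 and without ISO/PE female2, 2 without Ctr male1 and 4 without ISO/PE male1. All 9 were also lower in ISO/PE than in ISO (median log2 fold change vs. ISO -1.24), a count not reported here with hearts left out. Their summed level was 2699 to 4360 CPM in the ISO and 1363 to 1834 CPM in the ISO/PE hearts. Hbb-bs, a beta globin whose copies share sequence, was at 937, 467 and 769 CPM in the Ctr and 379.8, 436 and 498 CPM in the ISO/PE hearts, with overlapping groups. Endothelial markers were 0 of 13 higher and 1 lower (median -0.35, turning to 0.18 with the scaling to cardiomyocyte markers). Of 8 markers of Schwann cells and neurons tested, 1 was higher and 1 lower (median -0.10, turning to 0.46 with the same scaling). The fall was Dbh, the dopamine beta-hydroxylase of sympathetic nerves, from 7.95, 7.23 and 8.67 to 3.49, 2.49 and 3.75 CPM (log2 fold change -1.29, SE 0.18, edgeR adjusted p = 0.000195).

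Genes of protein folding and amino acid synthesis rose in part, whereas the count of higher ribosomal proteins was near the share over all genes. Of 26 endoplasmic reticulum genes 10 were higher and 0 lower (median 0.48), of 22 ATF4 targets and amino acid synthesis genes 11 were higher and 0 lower (median 0.74), and of 70 ribosomal proteins 14 were higher and 1 lower (median 0.41). Over all genes tested 16% were higher and 10.1% lower. The ribosomal count was 24 by total counts and 9 with sex and number of the heart as a block, and ribosomal protein genes have many near-identical copies. In contrast 0 of 38 proteasome subunits and 0 of 22 cytosolic aminoacyl-tRNA synthetases were called in either direction (medians -0.04 and 0.07). Edem1, which sends misfolded proteins to degradation, was at 23.6, 18.2 and 23.96 CPM in the Ctr and 69.9, 64.2 and 69.9 CPM in the ISO/PE hearts (log2 fold change 1.63, SE 0.13, edgeR adjusted p = 5.50e-06). Pycr1, an enzyme of proline synthesis, was at 3.65, 3.38 and 2.75 CPM in the Ctr and 21.4, 14.4 and 15.5 CPM in the ISO/PE hearts (log2 fold change 2.39, SE 0.21, edgeR adjusted p = 8.70e-06). Mthfd2, a mitochondrial enzyme of folate metabolism, was at 3.93, 3.57 and 3.67 CPM in the Ctr and 11.8, 12.2 and 16.98 CPM in the ISO/PE hearts (log2 fold change 1.87, SE 0.21, edgeR adjusted p = 3.47e-05). These had no overlap of the groups, and neither had the ribosomal proteins Rpl3 and Rpl3l, which moved apart. Rpl3l, the paralogue that takes the place of Rpl3 in striated muscle ribosomes, was at 279, 274 and 257 CPM in the Ctr and 74.2, 108 and 123 CPM in the ISO/PE hearts (log2 fold change -1.41, SE 0.15, edgeR adjusted p = 3.08e-05). Rpl3 was at 11.8, 11.4 and 11.1 CPM in the Ctr and 26.5, 20.3 and 20.5 CPM in the ISO/PE hearts (log2 fold change 0.98, SE 0.19, edgeR adjusted p = 0.00144).

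The chaperone Hspa5 (BiP), a main target of the unfolded protein response, was at 499, 791 and 418 CPM in the Ctr and 525, 477 and 739 CPM in the ISO/PE hearts, with overlapping groups (log2 fold change 0.03, edgeR adjusted p = 0.924). Ctr female2 alone was higher than ISO/PE male2. Creld2, a folding factor induced by stress in the reticulum, was at 16.8, 18.7 and 13.6 CPM in the Ctr and 25.7, 21.2 and 36.4 CPM in the ISO/PE hearts (log2 fold change 0.76, SE 0.18, edgeR adjusted p = 0.00551). Pdia6, a disulfide isomerase, was at 126, 172 and 90.95 CPM in the Ctr and 259.7, 174 and 251 CPM in the ISO/PE hearts (log2 fold change 0.81, SE 0.22, edgeR adjusted p = 0.0114). Both calls were lost in 1 setting, for Creld2 without ISO/PE male2 (0.52) and for Pdia6 with sex and number of the heart as a block (0.73). The endoplasmic reticulum stress element, read as CCAAT and CCACG with any 9 bases between them, on either strand of the same window, was likewise looked for after the values had been seen. It lay in 7 of 20 promoters of this list (35%), in 2 of 7 of its members called higher (28.6%) and in 13 of 11268 promoters of all genes (0.115%). Here too the high share follows from the choice of the list. The 2 called genes and 2 uncalled genes with a match, Dnajc3 (log2 fold change 0.43) and Calr (0.49), are shown, again from RefSeq on GRCm38.p6, in the direction of the gene and with the match in capitals: Creld2 (chr15:88819500-88819558, plus strand, match on the opposite strand), Pdia6 (chr12:17266471-17266529, plus strand), Dnajc3 (chr14:118937807-118937865, plus strand) and Calr (chr8:84847055-84847113, minus strand, match on the opposite strand).
Creld2: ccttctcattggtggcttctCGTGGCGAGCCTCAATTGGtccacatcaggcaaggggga
Pdia6: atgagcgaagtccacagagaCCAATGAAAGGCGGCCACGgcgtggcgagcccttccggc
Dnajc3: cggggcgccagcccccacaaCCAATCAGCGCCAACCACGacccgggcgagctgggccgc
Calr: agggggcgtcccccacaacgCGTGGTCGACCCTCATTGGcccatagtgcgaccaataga

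The match therefore occurred in promoters of genes that passed the test and of genes that did not.

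Sterol and fatty acid synthesis was higher in 10 of 26 genes and lower in 1 (median 0.54). Sqle, the squalene epoxidase of cholesterol synthesis, was at 4.397, 3.66 and 1.84 CPM in the Ctr and 14.5, 7.48 and 9.34 CPM in the ISO/PE hearts (log2 fold change 1.66, SE 0.31, edgeR adjusted p = 0.00113), and Elovl1, which elongates very long-chain fatty acids, rose 1.81-fold. The fall was Acacb, the acetyl-CoA carboxylase that makes malonyl-CoA at mitochondria, at 398, 428 and 369 CPM in the Ctr and 169, 182 and 221 CPM in the ISO/PE hearts (log2 fold change -1.06, SE 0.16, edgeR adjusted p = 0.000298). Of 24 antioxidant and NRF2 target genes 8 were higher and 4 lower, and the median of -0.08 turned to 0.46 with the scaling to cardiomyocyte markers. Hmox1, the heme oxygenase, was at 19.4, 16.1 and 26.6 CPM in the Ctr and 109.6, 154 and 149 CPM in the ISO/PE hearts (log2 fold change 2.73, SE 0.27, edgeR adjusted p = 1.57e-05), and Gpx3, a secreted glutathione peroxidase, rose 3.37-fold. Mgst3, a microsomal glutathione transferase, was at 428, 413 and 444 CPM in the Ctr and 136, 157 and 161 CPM in the ISO/PE hearts (log2 fold change -1.50, SE 0.09, edgeR adjusted p = 1.66e-06), and Prdx3, the mitochondrial peroxiredoxin, fell 1.78-fold. The direction thus differed between members, with mitochondrial Prdx3 among the falls.

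Among all genes without overlap and with a mean of 5 CPM or more in the higher group, the largest falls included genes outside these lists. Scd4, a stearoyl-CoA desaturase known from mouse heart, was at 24.4, 50.8 and 31.1 CPM in the Ctr and 1.94, 2.87 and 1.76 CPM in the ISO/PE hearts (log2 fold change -4.02, SE 0.40, edgeR adjusted p = 1.80e-05). Mylk4, a kinase of the myosin light chain kinase family found in heart, was at 229.8, 319 and 302 CPM in the Ctr and 22.6, 41.6 and 25.1 CPM in the ISO/PE hearts (log2 fold change -3.25, SE 0.30, edgeR adjusted p = 1.16e-05). Ces1d, a carboxylesterase that hydrolyses triglycerides, was at 42.6, 90.1 and 99.3 CPM in the Ctr and 9.04, 10.8 and 3.82 CPM in the ISO/PE hearts (log2 fold change -3.29, SE 0.66, edgeR adjusted p = 0.0017995). The groups were far apart in all 3, while the Ctr hearts of Scd4 and Ces1d also differed among themselves. Retnla, a resistin-like secreted protein of alternatively activated macrophages, was at 7.297, 7.32 and 14.4 CPM in the Ctr and 0.581, 0.983 and 0.294 CPM in the ISO/PE hearts (log2 fold change -3.95, SE 0.45, edgeR adjusted p = 3.98e-05), in the direction opposite to Arg1. Lgals4 and Lgals6, a pair of galectin genes so alike that their reads may be split between them, fell 9.57-fold and 9.52-fold. In absolute level, Myh6, Mb, Atp2a2 and Myl2 were among the genes that lost most CPM, and Col3a1, Col1a1, Postn and Clu among those that gained most. Clu, the secreted chaperone clusterin, was at 836, 828 and 728 CPM in the Ctr and 4531, 3323 and 3097 CPM in the ISO/PE hearts (log2 fold change 2.19, SE 0.25, edgeR adjusted p = 4.12e-05). Of all calls, 1827 of the higher and 1228 of the lower genes belonged to none of the lists.

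The 3 ISO/PE hearts were not alike in every group of genes. As the mean log2 difference of a list from the Ctr mean, interferon genes were at 1.25 in ISO/PE female2, 1.85 in male1 and 0.37 in male2, cytosolic heat shock proteins at 0.19, 0.05 and 1.43 in the same order, and MHC class II genes at 0.67, 0.57 and -0.16. Fatty acid oxidation, in comparison, was at -1.65, -1.23 and -1.35, and mitosis at 2.76, 2.78 and 2.11. Apart from sex-linked genes, the heat shock genes Hspa1a and Hspa1b had the widest spread over the ISO/PE hearts. This ranking covers genes with a mean of 5 CPM or more in those hearts. Hspa1a and Hspa1b are inducible chaperones whose near-identical copies lie on chromosome 17 (mm10) at chr17:34969359-34972156 and chr17:34956429-34959238. Hspa1b was at 2.34, 0.845 and 1.63 CPM in the Ctr and 5.62, 4.61 and 159 CPM in the ISO/PE hearts. Hspa1a was at 2.34, 1.03 and 0.918 CPM in the Ctr and 4.52, 3.33 and 91.2 CPM in the ISO/PE hearts. Both were far higher in ISO/PE male2 than in the other ISO/PE hearts, which were also above the Ctr hearts, and although edgeR called them higher (adjusted p = 0.00914 and 0.0103), DESeq2 and limma-voom did not. Both calls were also lost with sex and number of the heart as a block (log2 fold changes 2.82 and 2.70), and that of Hspa1a with sex as a covariate (3.57). The log2 fold changes without ISO/PE male2 were 1.67 and 1.45. The co-chaperone Hsph1 was at 49.7, 52.5 and 42.6 CPM in the Ctr and 49.3, 35.98 and 291 CPM in the ISO/PE hearts (log2 fold change 1.38, edgeR adjusted p = 0.0793). It was highest in ISO/PE male2 as well, but ISO/PE female2 lay within the Ctr hearts and ISO/PE male1 below them, and without ISO/PE male2 the log2 fold change was -0.18. Hspb1, a small heat shock protein, was at 57.4, 58.9 and 46.2 CPM in the Ctr and 102, 73.5 and 226 CPM in the ISO/PE hearts (log2 fold change 1.30, SE 0.32, edgeR adjusted p = 0.00633). The heat shock list as a whole had 6 of 18 genes higher and 2 lower. The higher genes were 2 with sex and number of the heart as a block and 3 with limma-voom, and the lower genes were 0 without ISO/PE female2.

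**Figure D5:**
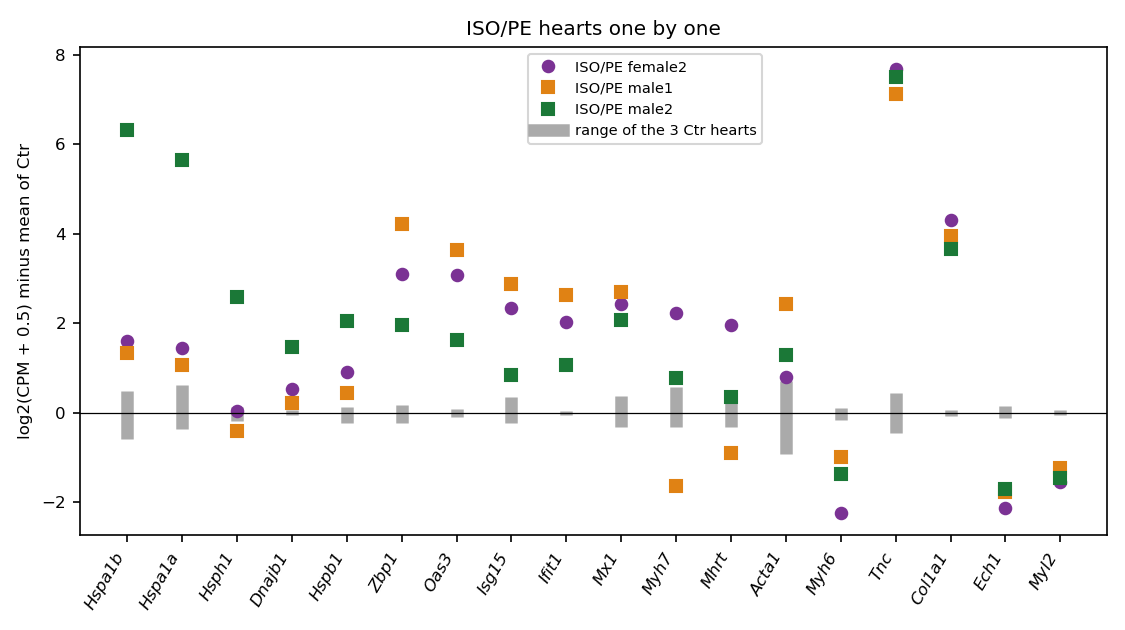
Difference of each ISO/PE heart from the mean of the Ctr hearts on the scale log2(CPM + 0.5), for single genes, with 1 point per ISO/PE heart and the range of the 3 Ctr hearts as a grey bar. The heat shock genes are highest in ISO/PE male2, the interferon genes are highest in ISO/PE male1, Myh7 and Mhrt are highest in ISO/PE female2, and Tnc, Col1a1, Ech1 and Myl2 are close together in the 3 hearts.

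The difference from hearts under isoprenaline alone was tested in the same fit. Relative to ISO, 525 genes were higher (3.64% of those tested) and 405 lower (2.81%) in ISO/PE. Of the 2309 genes higher than in Ctr, 476 were also higher than in ISO and 5 were lower. Of the 1463 lower genes, 313 were also lower than in ISO and 1 was higher. As both tests use the same ISO/PE hearts, these overlaps are counts without a test. Leaving out ISO female2 left 279 higher and 201 lower genes, and leaving out ISO/PE female2 left 319 and 221, so list counts are given with those hearts left out as well, a check that was added after the data had been seen. Potassium channels were lower than in ISO in 12 of 26 genes (6 without ISO female2, 8 without ISO/PE female2), and cardiomyocyte stress genes were higher in 11 of 20 (8 and 9). Collagen chains were higher in 11 of 35 (9 and 9) and lower in 3 (1 and 2), and other matrix proteins were higher in 16 of 41 (14 and 10) and lower in 2 (2 and 2). Collagen processing was higher in 14 of 22 (12 and 12) and activated fibroblast markers in 9 of 12 (9 and 7), with 0 lower in both. Endoplasmic reticulum genes were higher than in ISO in 13 of 26 (11 and 10). Fatty acid oxidation was lower than in ISO in 6 of 27 (2 and 2), and sarcomere and calcium handling genes in 5 of 30 (1 and 2) and 5 of 25 (1 and 2), with 1 sarcomere gene higher (0 and 0). Mitosis genes were higher in 1 of 40 (0 and 0), and 0 of 35 interferon genes were called.

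Values of single genes in the ISO hearts show the size of these differences. Kcnip2 was at 245, 186 and 159.6 CPM in the ISO hearts female2, male1 and male2 and lower in ISO/PE (log2 fold change vs. ISO -0.89, SE 0.15, edgeR adjusted p = 0.00475). Scn4b was at 79.4, 48.3 and 36.5 CPM in the ISO hearts (log2 fold change vs. ISO -2.31, SE 0.43, edgeR adjusted p = 0.00724). Adra1b was at 45.7, 54.5 and 45.1 CPM in the ISO hearts (log2 fold change vs. ISO -0.81, SE 0.11, edgeR adjusted p = 0.00242). All 3 were lower in ISO/PE than in ISO. Tnc was at 37.1, 225 and 217 CPM in the ISO hearts and higher in ISO/PE (log2 fold change vs. ISO 2.77, SE 0.50, edgeR adjusted p = 0.00655), and Nppb at 99.8, 192 and 267 CPM (log2 fold change vs. ISO 1.80, SE 0.35, edgeR adjusted p = 0.008703). Myh7, which did not pass the test against Ctr, was at 104, 135 and 93.3 CPM in the ISO hearts, and ISO/PE was higher (log2 fold change vs. ISO 3.04, SE 0.69, edgeR adjusted p = 0.0165). Hspa5, also not called against Ctr, was at 298, 348 and 329.9 CPM in the ISO hearts (log2 fold change vs. ISO 0.84, SE 0.22, edgeR adjusted p = 0.0283). All ISO hearts were below the ISO/PE hearts in Hspa5, whereas in Myh7 the ISO/PE male1 heart lay within the ISO hearts. Ech1 was at 894, 807 and 645 CPM in the ISO hearts, and the difference did not pass (log2 fold change vs. ISO -0.42, SE 0.15, edgeR adjusted p = 0.0825). Zbp1 was at 28.3, 29.8 and 27.1 CPM in the ISO hearts, within the range of the ISO/PE hearts (log2 fold change vs. ISO 0.03, SE 0.39, edgeR adjusted p = 0.971).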

How the data were processed

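Polyadenylated RNA from ventricles of 9 mice was sequenced. The deposited tables hold raw counts for each RefSeq transcript, which the authors obtained with STAR on mm10. The paper names analyzeRepeats.pl (exons, both strands) for the counting, the submitters' notes also name featureCounts, with versions not given in the sources used here. Reads were thus counted without regard to strand, so overlapping and near-identical genes are uncertain. The tables also hold the authors' normalized values, RPKM, log2 fold changes and p-values of DESeq2, none of which were used. One table is named for ISO/PE vs. Ctr but its columns are ISO/PE and ISO hearts.

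ISO/PE vs. Ctr was computed here. The tables were joined on 29889 shared transcripts (the ISO counts are equal in both), and the transcript with the highest total count stood for each of 15149 genes. Transcripts with 20 or fewer counts over a table are absent from it. After filterByExpr (minimum count 10, minimum total 15), edgeR 4.0.16 (R 4.3.3, TMM, quasi-likelihood, 1 coefficient per group, 9 hearts, no covariates) tested 14426 genes with Benjamini-Hochberg adjustment. Calls needed an adjusted p below 0.05 together with a log2 fold change beyond 0.6 in either direction. CPM use TMM library sizes, and standard errors were derived from fold change and test statistic. The p-values set a difference between groups against the spread of hearts within groups, estimated over all 9 hearts with the ISO hearts among them. Counting intervals are exact and cover counting error only.

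The comparison and the gene lists were chosen with earlier results of these data known. Genes were named by a rule: the 10 largest rises and falls without overlap and with a mean of 5 CPM or more, the 8 largest changes in CPM, per list the 3 lowest adjusted p and the most abundant member, a fixed set of receptors, sarcomere and metabolic genes, and the 8 genes of widest spread over the ISO/PE hearts. Of these a selection is given, some genes are not reported here, and further list members were named after their values had been seen. Promoters and gene positions are from RefSeq on GRCm38.p6, the assembly of mm10. Alternatives were other scalings, DESeq2 1.42.0, limma-voom (limma 3.58.1), no filter, the 6 hearts alone, sex as a covariate, a replicate block, the longest transcript, no fold threshold and each heart left out. Scripts were tested on simulated data.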

Additional observations from a re-analysis of the deposited data

Results flagged for a closer look

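A set of 355 genes was in the table of ISO/PE and ISO hearts alone and took no part in the tests, since transcripts with 20 or fewer counts over a table are absent from it. Of these, 7 had at least 5 counts in each ISO/PE heart and a level at least 8-fold above what absence from the Ctr table allows. The Ctr level was set to 3 counts over the 3 Ctr hearts or, where larger, to the largest sum that absence allows beside the ISO counts. Inava, which supports the barrier of epithelia, had 30, 32 and 25 counts in ISO/PE female2, male1 and male2 and was at least 23.1-fold higher than in Ctr. Olr1, the receptor LOX-1 for oxidised lipoprotein, had 24, 21 and 32 counts and was at least 15.3-fold higher. The predicted gene Gm38403 was at least 11.4-fold higher. Rgs1, which turns off G proteins in white blood cells, had 26, 14 and 23 counts and was at least 10-fold higher. Ascl2 was at least 9.57-fold higher, Lrr1 at least 9.3-fold and Steap1, a metalloreductase, at least 9.04-fold. These bounds assume that a transcript absent from the Ctr table had no more than 20 counts there. They concern the counts observed, do not cover counting error and have no test. The 7 genes were kept for being high in the ISO/PE hearts, and each had 14 to 20 counts over the ISO hearts.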

How the results depend on the processing

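The counts against Ctr kept within 1.5 times their value with other size factors, total counts, DESeq2, limma-voom, no filter, the 6 hearts alone, sex as a covariate, the replicate block and the longest transcript. Without a fold threshold 3527 genes were higher and 3269 lower than in Ctr, and 1076 higher and 1003 lower than in ISO. Scaled to the cardiomyocyte markers, 6335 were higher and 327 lower than in Ctr, and 2129 higher and 144 lower than in ISO. With each heart left out in turn, the higher genes numbered 2096 to 2400 and the lower genes 1262 to 1571 against Ctr, and 279 to 654 and 201 to 547 against ISO. The lowest counts against ISO came without ISO female2, and those without ISO/PE female2 were 319 and 221.

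Hearts of different groups share names such as female2. Deviations from the group means correlated at -0.13 to 0.19 between hearts with the same name and at -0.23 to 0.17 between hearts with different names. Such correlations cannot settle whether the names mark pairs, and the main fit did not use the names. With the name as a replicate block, 1990 genes were higher and 1260 lower than in Ctr, 1919 and 1175 of which were also called without the block. Of 73 single genes named as higher and 72 as lower, 6 and 5 lost the call in at least 1 of 18 alternatives, in 15 and 13 values, and 0 changed direction. The scaling to cardiomyocyte markers, beside these 18, took the call from 0 of the 73 and 27 of the 72, with 0 changes of direction. Of 19 named genes without a call, 5 gained it in at least 1 of the 18 alternatives and 6 with that scaling, and the sign changed in 9 and 10, among them Actc1 and Aldoa with total counts. With 3 hearts a group, some counts over lists with changes near the threshold of 0.6, such as that of ATP synthase, changed when single hearts were left out. Genes with a few counts per heart, such as Il6, Mas1 and most lymphocyte markers, were limited by depth.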

Other observations

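Alb, which encodes albumin, the main secreted protein of liver, was in the table of ISO/PE and ISO hearts alone. It had 133 counts in ISO/PE male2 and 1 count each in ISO/PE female2 and male1, and 0 counts over the ISO hearts. The difference between the ISO/PE hearts was not tested.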
